A study of Mus musculus with 16 samples.

Results

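Pmp22, Vnn1, Phldb2, Sparcl1, Cfap221, Tspan1, 3830417A13Rik and Gm9112 are genes that earlier readings of these arrays had placed higher after Ptn_VP64 than after other constructs, and that fall into no common pathway. They were found here as every probe whose RefSeq accession carries one of these 8 symbols, 11 probes in all, of 20972 genes named on the array. The genes were selected on their measured levels after Ptn_VP64, so the differences of that group are given below as a description with no test. The mouse embryonic stem (ES) cell line E14, grown with serum and LIF, was transfected with a plasmid, sorted for eGFP after 24 h and harvested for RNA at 48 h. The Ptn_VP64 plasmid encodes a TALE, an engineered protein whose repeats bind a chosen DNA sequence, here at the gene Ptn, joined to the transcription activator VP64. In Ptn_DEL the same TALE is joined to DEL, a peptide known for loosening chromatin. What Ptn_Delta holds beside the TALE is not stated in the labels, and EGFP is the fluorescent protein alone. All 4 groups went through the same transfection and sort, and transient expression of a plasmid in 1 cell line limits each of them as a model. Each group has 4 hybridisations, 2 biological and 2 technical replicates, and which of them repeat 1 sample is not stated. The arrays' number therefore limits the precision of every value.

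The genes share no function. Pmp22 codes for a small membrane protein of compact myelin, also made in epithelia, and Tspan1 for a tetraspanin, a family of membrane proteins that organise other surface proteins. Vnn1 codes for a pantetheinase, an enzyme anchored at the cell surface that splits pantetheine into cysteamine and pantothenate, the vitamin used to make coenzyme A. Phldb2, also called LL5 beta, is a lipid-binding protein of the cell cortex that helps anchor microtubule ends there. Sparcl1 is a secreted matrix protein of the SPARC family, and Cfap221 a protein of the central pair of motile cilia. No role is given here to 3830417A13Rik or to Gm9112.

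Promoter sequences were searched for motifs at the starts of the genes, as a description with no test. The RefSeq promoter table of the build GRCm38.p6 held 9 promoters of 6 of the genes, and none was printed for Vnn1 and Sparcl1. Below are the 130 bases before the start of 1 promoter of each, on the gene's strand, with motif matches in capitals.
Pmp22 (chr11:63131327-63131456, plus strand): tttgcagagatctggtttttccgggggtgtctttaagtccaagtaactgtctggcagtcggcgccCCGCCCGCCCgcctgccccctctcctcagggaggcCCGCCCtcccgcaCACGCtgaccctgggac
Tspan1 (chr4:116167599-116167728, minus strand): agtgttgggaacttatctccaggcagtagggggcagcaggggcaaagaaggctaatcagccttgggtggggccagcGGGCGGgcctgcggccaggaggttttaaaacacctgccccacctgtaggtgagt
Phldb2 (chr16:45844379-45844508, minus strand): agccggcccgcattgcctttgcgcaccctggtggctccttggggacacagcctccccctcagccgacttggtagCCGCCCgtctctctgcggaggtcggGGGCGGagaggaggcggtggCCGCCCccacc
Cfap221 (chr1:119997233-119997362, minus strand): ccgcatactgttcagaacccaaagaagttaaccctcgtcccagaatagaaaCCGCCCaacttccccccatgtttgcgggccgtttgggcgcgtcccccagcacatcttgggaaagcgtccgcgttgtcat
3830417A13Rik (chrX:64173418-64173547, plus strand): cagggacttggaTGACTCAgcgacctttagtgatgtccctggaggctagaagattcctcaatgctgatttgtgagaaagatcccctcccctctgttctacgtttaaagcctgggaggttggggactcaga
Gm9112 (chrX:102707671-102707800, minus strand): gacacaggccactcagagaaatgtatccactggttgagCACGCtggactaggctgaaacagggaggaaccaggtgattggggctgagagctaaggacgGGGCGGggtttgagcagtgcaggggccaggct

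Each promoter was searched on both strands from 250 bases before to 50 bases after the start. The GC box, searched as CCGCCC, was the match most of them had, in 6 of the 9 promoters, against 35.7% of all 32851 promoters in the table. Counted by gene, 5 of the 6 had it in at least 1 promoter. In the Pmp22 promoter printed above, 2 of its matches overlap. The AP-1 motif, searched as TGANTCA, matched only 3830417A13Rik among the 6 genes, 118 bases before the start, and 7.81% of all promoters hold it. The TEAD motif GGAATG matched 1 of the 4 Pmp22 promoters, one not printed, at 173 bases before the start (14.7% of all promoters). The core bound by the aryl hydrocarbon receptor, GCGTG, matched 3 of the 6 genes (32.4% of all promoters). No promoter of these genes held TATAAA (13.6% of all promoters), TGACGTCA (1.79%) or CACGTG (7.15%), which says only that those letters are not in these windows. The GC content of the 9 promoters ran from 48.3 to 72.3%, and 7 of them, 3 of Pmp22 included, lay above the median of 52.7% over all promoters.

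The arrays differed in quality in ways that touch these genes. The 75th percentile of the signal ran from 209.3 to 1253, and 27.2 to 43.8% of the spots of an array were well above background. Broad dim and bright patches covered the arrays, and 0.64 to 35.6% of an array's spots lay in strong patches. Levels below are log2 relative to the array's 75th percentile, after a correction for these patches, with spots that the scanner software marked or that lay in strong patches left out. Of the 128 spots of the 8 probes that stood for the genes, 96 were used. All 10 ES cell markers were well above background on every array of all 4 groups. Of the 8 of them tested, 7 were lower after Ptn_VP64 than after EGFP, with a median of -0.62 and none called (limma, adjusted p = 0.634 to 1), and the medians were -0.48 for Ptn_DEL and -0.44 for Ptn_Delta against EGFP. The part of this shift in the values of the 8 genes was not tested. Ptn itself averaged 2.96 ± 0.36 after Ptn_VP64 (SD, n = 3 arrays), -0.94 ± 1.38 after Ptn_DEL (n = 3), -0.97 ± 1.33 after Ptn_Delta (n = 3) and -1.24 ± 1.32 after EGFP (n = 2).

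All 8 genes passed the filter on dim probes, which asks for a signal well above background on at least 4 of 16 arrays, and 11284 genes did in all. Sparcl1 passed it through its 4 Ptn_VP64 arrays alone, and Vnn1 through 3 of them and 1 Ptn_Delta array, so these genes had to differ. Tspan1 passed it through 4 Ptn_VP64 and 2 Ptn_DEL arrays, and Cfap221 through 3 Ptn_VP64 and 2 EGFP arrays. Neither would have passed without its Ptn_VP64 arrays, so their folds below are not free of the filter. Over the 8 genes, 30 of 32 spots were well above background after Ptn_VP64, 18 of 32 after Ptn_DEL, 17 of 32 after Ptn_Delta and 12 of 32 after EGFP. Where a group had no array well above background for a gene, the fold is given as "at least". It is taken from the lowest level well above background on each array, or from the gene's own level where that is higher. A spot above that lowest level can still fail to be well above background, so these folds are approximate bounds. The plot of levels on every array shows which spots were not well above background.

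**Figure D1:**
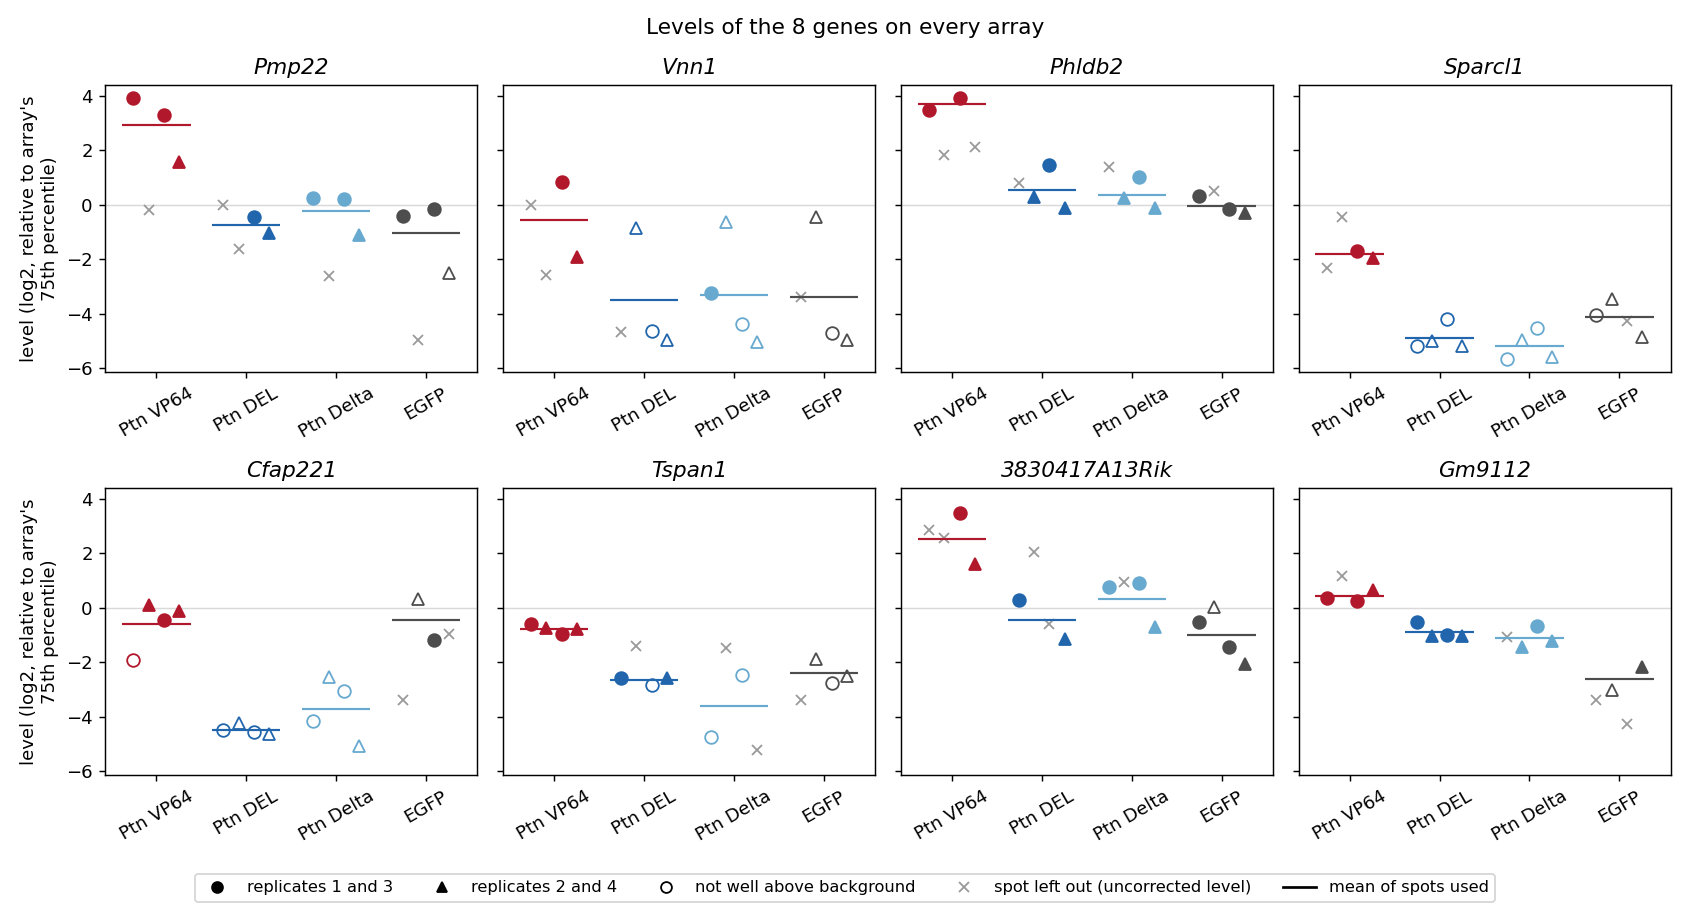
Level of each gene on every array (log2, relative to the array's 75th percentile, patch corrected), for Ptn_VP64, Ptn_DEL, Ptn_Delta and EGFP from left to right, with circles for replicates 1 and 3, triangles for replicates 2 and 4, open symbols for spots not well above background, grey crosses for spots left out (uncorrected level) and a line at the mean of the spots used. The used Ptn_VP64 values of Pmp22, Phldb2, Sparcl1, Tspan1, 3830417A13Rik and Gm9112 lie above all used values of the other groups, and those of Vnn1 and Cfap221 do not.

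Pmp22 was measured in all 4 groups. Its level was 3.92, 3.28 and 1.57 on Ptn_VP64 replicates 1, 3 and 4, against -0.44 and -1.03 on Ptn_DEL replicates 3 and 4, 0.25, 0.19 and -1.11 on Ptn_Delta replicates 1, 3 and 4, and -0.40, -0.17 and -2.53 on EGFP replicates 1, 3 and 4. The lowest used Ptn_VP64 array stood above every used array of the other groups. Ptn_VP64 replicate 2, left out for a strong patch, read -0.18 uncorrected, below Ptn_Delta replicate 1 at 1.34 on the same scale, and 1.43 after patch correction, above every used value of the other groups. Ptn_VP64 was above Ptn_DEL by 3.48 ± 0.93 (SE), above Ptn_Delta by 3.14 ± 0.93 and above EGFP by 3.95 ± 0.93. These differences, here and below, come from the fit, which averages arrays into samples, so they can depart from the difference of the plain means. Ptn_DEL, Ptn_Delta and EGFP, with means of -0.74, -0.22 and -1.03, did not differ beyond their SDs of 0.42 to 1.30. The second Pmp22 probe also put Ptn_VP64 highest and EGFP lowest, with Ptn_DEL and Ptn_Delta in the other order, at means of 3.49 ± 0.82 after Ptn_VP64 (SD, n = 3), -0.51 ± 1.09 after Ptn_DEL (n = 4), -0.66 ± 1.44 after Ptn_Delta (n = 4) and -1.62 ± 1.26 after EGFP (n = 3).

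Tspan1 was even after Ptn_VP64, with an SD of 0.15 over 4 arrays. Its level was -0.62, -0.74, -0.98 and -0.79 on the 4 Ptn_VP64 arrays, against -2.58, -2.83 and -2.59 on Ptn_DEL replicates 1, 3 and 4, -4.75 and -2.46 on Ptn_Delta replicates 1 and 3, and -1.87, -2.76 and -2.51 on EGFP replicates 2, 3 and 4. The groups did not overlap with Ptn_VP64, and they overlapped with each other. Ptn_VP64 was above Ptn_DEL, where 2 of 4 arrays were well above background, by 1.89 ± 0.75 (SE). Neither Ptn_Delta nor EGFP had such an array. Tspan1 was at least 5.48-fold higher after Ptn_VP64 than after Ptn_Delta (3.13-fold on uncorrected levels). It was at least 2.96-fold higher than after EGFP (2.57-fold on uncorrected levels).

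Vnn1 was seen well above background on 3 of 4 Ptn_VP64 arrays and on 1 of the other 12, a Ptn_Delta array. Only 2 Ptn_VP64 spots were used, at 0.82 on replicate 3 and -1.91 on replicate 4. The other groups held -0.85, -4.66 and -4.98 on Ptn_DEL replicates 2, 3 and 4, -3.24, -0.63, -4.38 and -5.04 on the 4 Ptn_Delta arrays, and -0.46, -4.73 and -4.98 on EGFP replicates 2, 3 and 4. On replicate 2 all 3 of these groups read above the Ptn_VP64 value of replicate 4, without being well above background, so the groups overlapped. The means were -0.55 ± 1.93 after Ptn_VP64 (SD, n = 2), -3.50 ± 2.30 after Ptn_DEL (n = 3), -3.32 ± 1.94 after Ptn_Delta (n = 4) and -3.39 ± 2.54 after EGFP (n = 3). No fold is given for Vnn1, since 2 arrays so far apart set its Ptn_VP64 mean.

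Phldb2 was bright in every group, with all 16 arrays well above background. The level was 3.47 and 3.91 on Ptn_VP64 replicates 1 and 3, against 0.27, 1.46 and -0.12 on Ptn_DEL replicates 2, 3 and 4, 0.25, 1.00 and -0.14 on Ptn_Delta replicates 2, 3 and 4, and 0.30, -0.16 and -0.30 on EGFP replicates 1, 3 and 4. Ptn_VP64 replicates 2 and 4 were marked by the scanner software, and their patch-corrected levels, 1.84 and 2.12, were lower than the 2 used but still above every used value of the other groups. With marked spots kept, the difference of Ptn_VP64 from the mean of the other 3 groups was 2.53, against 3.41 ± 0.60 (SE) without them. The 3 other groups had means of 0.54, 0.37 and -0.05 for Ptn_DEL, Ptn_Delta and EGFP, apart by less than the SD of Ptn_DEL, 0.82.

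Sparcl1 was well above background on all 4 Ptn_VP64 arrays and on none of the other 12. Its level was -1.70 and -1.94 on Ptn_VP64 replicates 3 and 4, against -5.17, -4.99, -4.20 and -5.17 on the 4 Ptn_DEL arrays, -5.66, -4.99, -4.54 and -5.59 on the 4 Ptn_Delta arrays, and -4.05, -3.47 and -4.85 on EGFP replicates 1, 2 and 4. Ptn_VP64 replicates 1 and 2 lay in strong patches. Sparcl1 was at least 3.03-fold higher after Ptn_VP64 than after Ptn_DEL, at least 3.38-fold higher than after Ptn_Delta and at least 1.89-fold higher than after EGFP. On uncorrected levels these bounds were 2.68-fold, 2.92-fold and 1.62-fold.

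Cfap221 did not follow the description of the group on the used spots, because its level after Ptn_VP64 was not above that after EGFP. It was -1.93, 0.12, -0.47 and -0.11 on the 4 Ptn_VP64 arrays, against -4.48, -4.24, -4.56 and -4.64 on the 4 Ptn_DEL arrays, -4.15, -2.54, -3.06 and -5.07 on the 4 Ptn_Delta arrays, and 0.31 and -1.20 on EGFP replicates 2 and 3. Ptn_VP64 and EGFP overlapped, with a difference of -0.15 ± 0.78 (SE), and no array after Ptn_DEL or Ptn_Delta was well above background. With every spot kept, Ptn_VP64 had the higher mean, within the spread. Uncorrected it was -0.856 ± 1.51 after Ptn_VP64 and -1.615 ± 1.33 after EGFP (SD, n = 4 each), and on deposited values 8.62 and 7.69. Cfap221 was at least 7.06-fold higher after Ptn_VP64 than after Ptn_DEL and at least 6.50-fold higher than after Ptn_Delta, and on uncorrected levels these bounds were 3.68-fold and 3.60-fold. After EGFP 2 of 4 arrays were well above background, 1 of them among the used spots. The means were -4.48 after Ptn_DEL, -3.70 after Ptn_Delta and -0.44 after EGFP.

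3830417A13Rik had 2 used Ptn_VP64 spots, at 3.47 on replicate 3 and 1.59 on replicate 4. The others were 0.28 and -1.17 on Ptn_DEL replicates 1 and 4, 0.74, 0.90 and -0.70 on Ptn_Delta replicates 1, 3 and 4, and -0.53, 0.04, -1.45 and -2.06 on the 4 EGFP arrays. No used value outside Ptn_VP64 reached its lowest one. Ptn_DEL replicate 2, left out for a strong patch, read 2.03 uncorrected, above Ptn_VP64 replicate 4 at 1.41 on the same scale. After patch correction it read -0.05. The difference of Ptn_VP64 was 3.18 ± 0.83 (SE) from Ptn_DEL, 2.42 ± 0.79 from Ptn_Delta and 3.73 ± 0.79 from EGFP.

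On its used spots, Gm9112 was the gene with steps between the groups. Its level was 0.34, 0.26 and 0.65 on Ptn_VP64 replicates 1, 3 and 4, against -0.52, -1.05, -1.003 and -1.03 on the 4 Ptn_DEL arrays, -1.44, -0.68 and -1.24 on Ptn_Delta replicates 2, 3 and 4, and -3.04 and -2.18 on EGFP replicates 2 and 4. On used spots the TALE groups without VP64 overlapped with each other and lay between Ptn_VP64 and EGFP, neither of which they touched. EGFP replicates 1 and 3, left out for strong patches and not well above background, read -3.37 and -4.29 uncorrected. After patch correction they read -1.46 and -0.39, the latter above every used Ptn_DEL and Ptn_Delta value. Ptn_VP64 was above Ptn_DEL by 1.32 ± 0.33 (SE), above Ptn_Delta by 1.54 ± 0.33 and above EGFP by 3.02 ± 0.40, and Ptn_DEL was above EGFP by 1.71 ± 0.40 and Ptn_Delta above EGFP by 1.49 ± 0.40. EGFP had 1 of 4 arrays well above background. The 2 other probes put Ptn_VP64 highest as well, at -0.29 ± 0.13 and -0.79 ± 0.26 (SD, n = 3 each), but with no step between the TALE groups without VP64, at -2.17 and -2.12 for Ptn_DEL and -2.30 and -2.11 for Ptn_Delta, and EGFP, at -2.31 and -1.95.

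**Figure D2:**
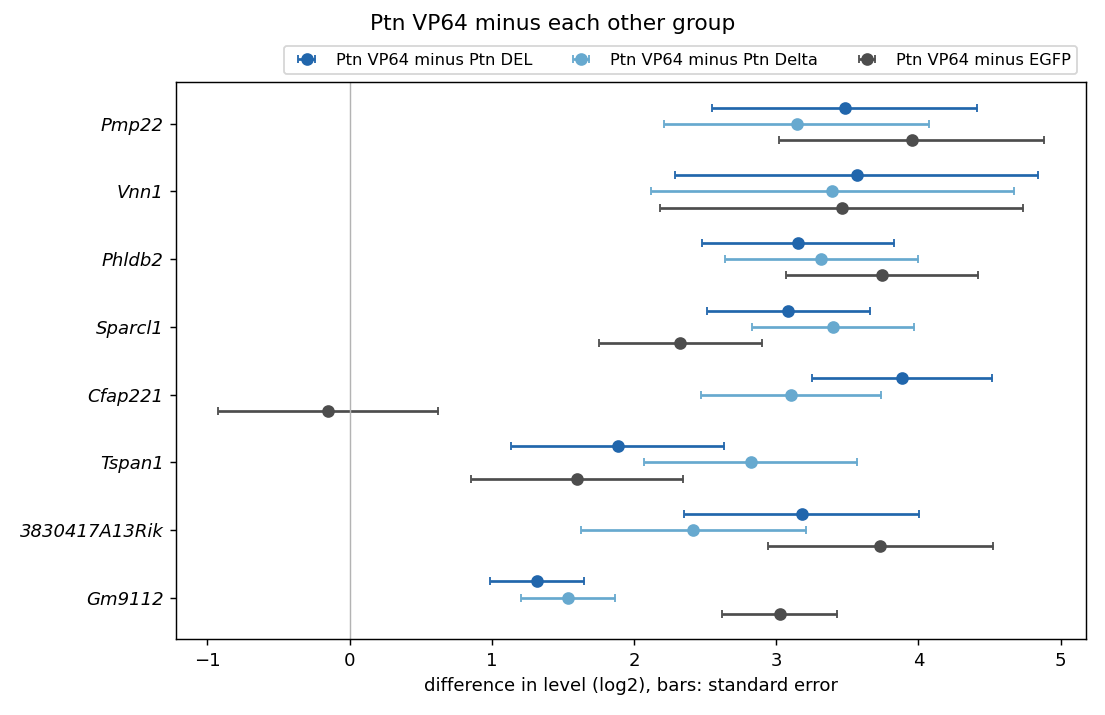
Difference of the level (log2) of each gene after Ptn_VP64 minus Ptn_DEL, Ptn_Delta and EGFP, with the standard error as the bar. Cfap221 stands at -0.15 against EGFP and at 3.88 and 3.11 against Ptn_DEL and Ptn_Delta, and a difference from a group with few or no arrays well above background, such as those of Vnn1, is no measure of the fold.

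Counted over arrays, 6 of the 8 genes had every used Ptn_VP64 value above every used value of the other 3 groups. This was so of 4.4% of the 11284 genes in the fit, and nothing is read from the count because the genes were chosen for it. On uncorrected levels with every spot kept, the count over the 3 groups was 4 of 8, Phldb2, Sparcl1, Tspan1 and Gm9112. The share over all genes was not counted on that scale, and nothing is read from this count either. The 3 comparisons share the Ptn_VP64 arrays. Within slide 2 alone, Ptn_VP64 stood above the mean of the other 3 groups for each of the 8 genes, by 1.72 for Tspan1 to 4.25 for Vnn1. On slide 1, where 4 genes had the values for it, it was above by 1.56 for Cfap221, 2.09 for Gm9112, 2.39 for Tspan1 and 3.20 for Phldb2. The slides are parts of the arrays on which the genes were chosen, so they are no independent repeats and nothing is read from these signs. The Vnn1 value on slide 2 is against spots not well above background and is no measure of a fold.

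Ptn_DEL and Ptn_Delta were compared to ask whether the peptide joined to the TALE made a difference to these genes. Both were among the constructs that Ptn_VP64 was set against in the choice, which was not made on the difference between them. No gene of the 8 differed between them in limma over 3 pairings of the arrays, where all adjusted p were 1 (unadjusted p = 0.254 to 0.778). Limma called 0 of 11282 genes in this comparison (0%), with 11 genes at an unadjusted p under 0.05 (0.0975%), and 0 with the arrays unaveraged. The test over pairings keeps the largest of 3 p-values and does not match same-numbered Ptn_DEL and Ptn_Delta arrays, whose deviations correlated as given below. It is therefore strict, and the small share of genes is no evidence that the groups are alike. The 95% intervals, from the largest standard error of the 3 pairings with 4 degrees of freedom, show how much the comparison leaves unseen. They ran from -0.70 to 1.13 for Gm9112, the narrowest, and from -3.72 to 3.37 for Vnn1, the widest.

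Within the groups, Pmp22 read higher on replicates 1 and 3 than on replicates 2 and 4. Replicate 2 was left out in all 4 groups, so replicate 4 alone stands for the second row in each, and in Ptn_DEL the comparison is of 1 array with 1. The difference was 2.03 after Ptn_VP64, 0.60 after Ptn_DEL, 1.33 after Ptn_Delta and 2.24 after EGFP, with no overlap between the rows in 4 of 4 groups, as for 6.42% of the 8679 genes with the values for it. Replicates 1 and 3 occupied 1 row of arrays on each of the 2 slides and replicates 2 and 4 the other. Over the 4 groups Pmp22 differed by 1.55 ± 0.30 (SE) with arrays averaged over slides (limma, adjusted p = 0.126), and it passed with the arrays unaveraged (1.49 ± 0.29, adjusted p = 0.0379), a fit that counts technical repeats as replicates. In that fit 3.61% of genes were called, 279 higher and 128 lower, and 0 with averaging, where 1788 (15.8%) had an unadjusted p under 0.05. The second Pmp22 probe gave 1.92 (adjusted p = 0.0882 with averaging).

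**Figure D3:**
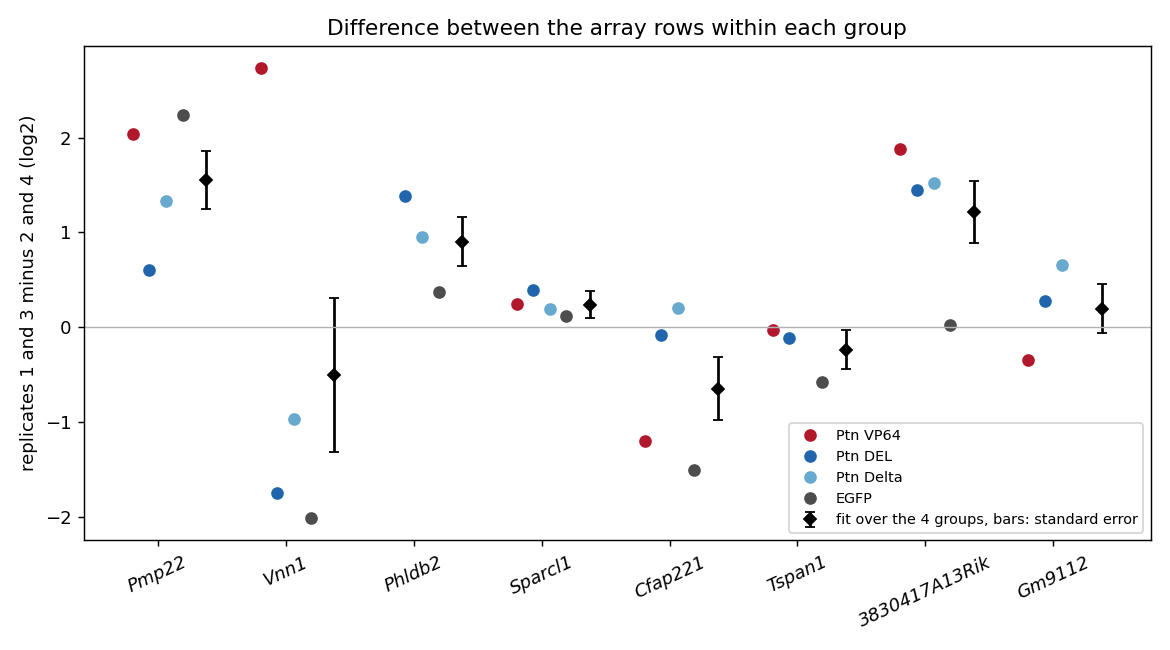
Difference between replicates 1 and 3 and replicates 2 and 4 (log2) within Ptn_VP64, Ptn_DEL, Ptn_Delta and EGFP for each gene, with the estimate over the 4 groups and its standard error as a black diamond. Pmp22 is above 0 in 4 of 4 groups, and no point is drawn where a group had no used value on 1 of the 2 rows.

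3830417A13Rik had a difference of 1.22 ± 0.33 (adjusted p = 0.193, limma) and Phldb2 of 0.90 ± 0.26 (adjusted p = 0.224). The other 5 genes lay between -0.65 for Cfap221 and 0.24 for Sparcl1. This comparison was added after seeing the data. Array row and biological sample cannot be told apart here, since replicates 1 and 3 may be repeats of 1 sample. Nor can column on the slide and construct, because each construct had a column of its own.

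Relatives and partners of the named genes were read between Ptn_VP64 and EGFP, 54 genes in 6 lists chosen with earlier results known. None of them was called in limma over 3 pairings, where 2 of 11282 genes were (0.0177%) and 8.12% had an unadjusted p under 0.05, as did 15 of the 54 relatives (27.8%), 8 of them tetraspanins. With the arrays unaveraged 4 of the 54 passed, all higher, where 3.22% of all genes did. The median difference over all genes was 0.015, and the plot of relatives shows each list.

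**Figure D4:**
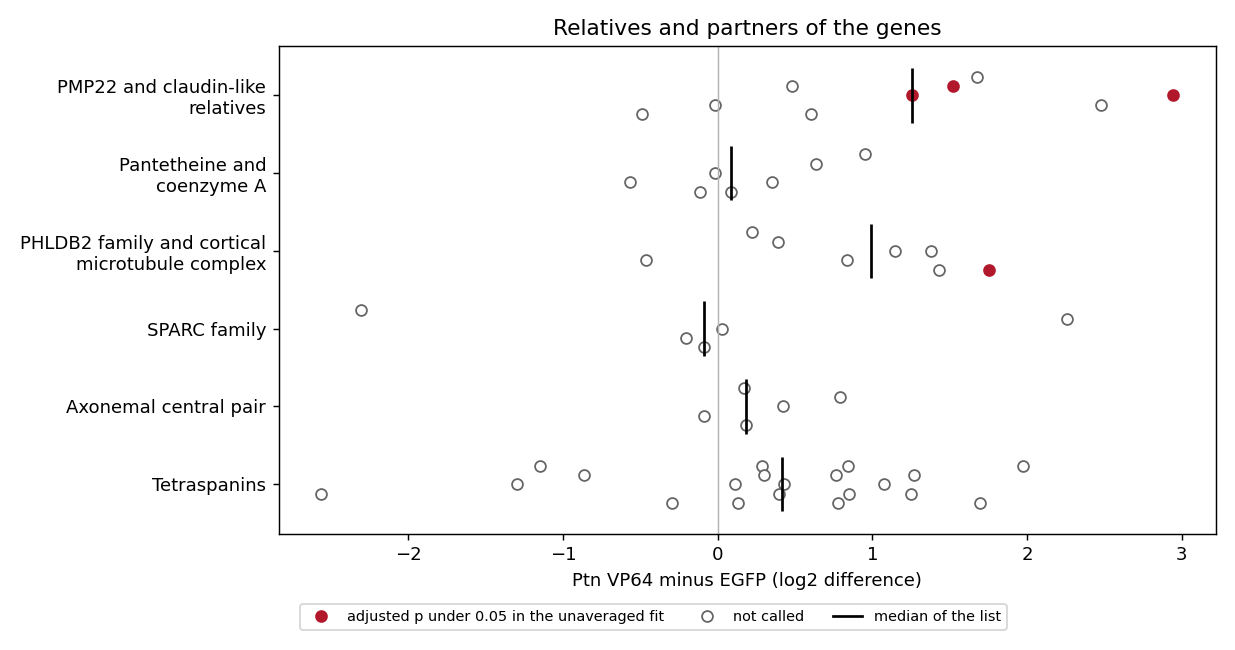
Difference of the level (log2) after Ptn_VP64 minus EGFP for genes of 6 lists of relatives and partners, filled where the unaveraged limma fit passed an adjusted p of 0.05, with the median of each list as a black line. The median is 1.26 for the relatives of PMP22 and 0.99 for those of PHLDB2, and 4 of the 54 genes are filled.

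Of the relatives of PMP22, 7 of 9 tested were higher after Ptn_VP64 than after EGFP, with a median of 1.26. The median of Ptn_VP64 was smaller against Ptn_DEL (0.27) and against Ptn_Delta (0.16), and these groups had medians of 0.38 and 0.42 above EGFP. Emp1, an epithelial membrane protein of the same family, was at 4.18 ± 0.25 after Ptn_VP64 (SD, n = 2 arrays) and 2.66 ± 0.40 after EGFP (n = 4), a difference of 1.52 ± 0.33 (adjusted p = 0.358, limma, and 0.0111 unaveraged). Cldn7, a claudin of tight junctions, differed by 2.94 ± 0.76 (adjusted p = 0.463, and 0.0434 unaveraged). Perp, a desmosomal protein of this family, differed by 1.26 ± 0.34 (adjusted p = 0.471, and 0.0169 unaveraged), with 4.28 after Ptn_DEL and 4.37 after Ptn_Delta beside 4.30 after Ptn_VP64 and 3.05 after EGFP.

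Among partners of PHLDB2 at the cortex, 7 of 8 tested were higher, with a median of 0.99, beside 0.41 against Ptn_DEL and 0.52 against Ptn_Delta. Phldb1, its nearest relative, differed by 1.75 ± 0.32 (adjusted p = 0.341, and 0.0105 unaveraged). Tln1, the talin that links integrins to actin, differed by 1.14 ± 0.34 and Clasp2, which binds microtubule ends, by 1.43 ± 0.49, and neither passed in either fit (adjusted p = 0.457 and 0.53, limma over pairings).

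The other lists lay nearer to the median of all genes. Of the tetraspanins, 15 of 20 were higher with a median of 0.41, and those with the smallest p were Cd37 (-2.56), Tspan12 (1.25) and Tspan18 (1.97), none of which passed. For pantetheine and coenzyme A, 4 of 7 were higher with a median of 0.08, led by Pank3 (0.95), Btd (-0.57) and Pank2 (0.63). Of the SPARC family 2 of 5 were higher with a median of -0.09, and Sparc differed by 2.26 ± 0.94, Spock1 by -2.31 ± 0.80 and Smoc1 by -0.21. Central pair genes, the partners of Cfap221, had 4 of 5 higher with a median of 0.19, led by Spag6l (0.79), Spag16 (0.42) and Cfap69 (0.19).

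Markers of 2 other cell types gave higher sums after Ptn_VP64. Summed over 10 trophoblast markers on the deposited log2 scale, the level was 14.62 to 17.08 after Ptn_VP64, 13.35 to 15.29 after Ptn_DEL, 13.28 to 15.56 after Ptn_Delta and 11.48 to 14.27 after EGFP. Of these markers, 7 of 10 were well above background on every Ptn_VP64 array, 3 on every Ptn_DEL array, 3 on every Ptn_Delta array and 1 on every EGFP array. All 5 tested were higher after Ptn_VP64 than after EGFP and none was called (limma over pairings): Krt8 by 4.05 ± 1.54 (adjusted p = 0.584), Krt18 by 3.98, Krt19 by 3.14, Gata3 by 2.94 and Esx1 by 1.96. Elf5, a defining trophoblast factor, was well above background on no array of any group. Fibroblast markers summed to 13.21 to 15.70 after Ptn_VP64, 11.16 to 12.77 after Ptn_DEL, 11.03 to 13.13 after Ptn_Delta and 10.81 to 12.58 after EGFP. Only 2 of these 10 were well above background on every Ptn_VP64 array, 1 on every Ptn_DEL array, 2 on every Ptn_Delta array and 1 on every EGFP array. Postn was so on no array of any group, and Lum on no Ptn_VP64 array. Values were summed unlogged, so bright genes weigh most, and Acta2, the brightest tested, was at 4.84 after Ptn_VP64 and 1.31 after EGFP. Of the 6 tested, 4 were higher after Ptn_VP64 than after EGFP, with Acta2 at 3.52 ± 1.59 and Col1a1 at 3.00 ± 1.34 (adjusted p = 0.728 and 0.645, limma). Col1a2 (2.17) and Col3a1 (0.48) were higher as well, and Thy1 (-1.34) and Col6a1 (-0.22) were lower. The markers named singly were picked after their values were seen. Their part in the values of the 8 genes was not tested. In cells measured in bulk, fewer cells of a type and less RNA per cell cannot be told apart.

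Markers of the cells that Pmp22 and Cfap221 are known from were read too. Of the Schwann cell markers, Sox10, Egr2, Mag and S100b were well above background on no Ptn_VP64 array, and Egr2 and Mag on no array at all. The list also had 4 of 10 markers well above background on every Ptn_VP64 array, and Mbp, a protein of compact myelin, differed from EGFP by 2.46 ± 0.67 (adjusted p = 0.457, limma, and 0.0197 unaveraged). Markers of multiciliated cells summed to 11.40 to 12.48 after Ptn_VP64 and 11.86 to 16.12 after EGFP. After Ptn_DEL the sums were 11.68 to 12.15, and after Ptn_Delta 11.09 to 12.43. Of these 10 markers, 5 were well above background on no EGFP array, Foxj1 included. Such markers were 4 for Ptn_VP64, 2 for Ptn_DEL and 4 for Ptn_Delta, with Dnah5 and Hydin among them in every group. The level of Rsph1 had an SD of 3.889 over the 4 EGFP arrays, against 0.059 to 0.42 in the other groups. Its part in the range of the EGFP sums was not tested. Primitive endoderm markers summed to 12.11 to 13.02 after Ptn_VP64 and 11.57 to 13.65 after EGFP.

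Genes closest in pattern were sought for each of the 8 by the root mean square difference of centred levels over arrays with a value in both. By the rule of at least 14 arrays, only Cfap221 had any, Ccl2 (1.098), Pparg (1.24) and Nr2f2 (1.39). With at least 11 arrays, a limit added after seeing this, Gpat3 was the closest to both Phldb2 (0.26) and Pmp22 (0.59). Wnt5a was the closest to Tspan1 (0.41), Parm1 to Gm9112 (0.32), Nsl1 to Sparcl1 (0.52), Lhfp to 3830417A13Rik (0.54) Klra16 to Cfap221 (0.70) and Cacna1h to Vnn1 (1.08). The arrays share their groups and slides, and no test was made.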

How the data were processed

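The 8 genes and the lists were chosen with earlier results of these data known. Cy3 arrays were read with Agilent Feature Extraction 11.5.1.1, per the file headers, which also give the processed signal, a background-subtracted intensity not normalized between arrays. The deposited series values are log2, quantile normalized by the authors as their equal quantiles show. Probes were named by accession through a RefSeq table of GRCm38.p6, and 27656 of 55681 probes had 1 symbol. The array design is annotated on mm9, so no positions of probes are given.

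From the intensities, the log2 level relative to the array's 75th percentile was computed in Python 3.11.15. Spots marked as non-uniform or population outliers were left out. Local shifts were subtracted, each the median difference from the 16-array median in a window of 21 by 21 spots, and a spot was dropped where its shift lay over 1 log2 unit away from the median shift of its array. A probe was kept if at least 4 of the 16 arrays had it well above background and every group had at least 2 arrays left. Each gene was read from its brightest such probe by the mean.

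Since which arrays are technical repeats is not stated, arrays were averaged to 2 samples a group in 3 possible pairings. Each was fitted with limma 3.58.1 in R 4.3.3 on all 4 groups together, and slide was a covariate where it does not cancel. Of the 3 p-values the largest was taken, with Benjamini-Hochberg adjustment across the 11282 genes that had one and a threshold of 0.05. P-values measure the spread between these samples only. Array row was fitted as a term beside the construct. The scripts were tested on simulated data.

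All 8 genes are described, with every probe. The 3 closest genes by pattern over at least 14 arrays (or the closest 1 over at least 11) and up to 3 relatives by p from each list are named. Same-numbered arrays of Ptn_DEL and Ptn_Delta correlated in their deviations from the group means (r = 0.385 to 0.582 over 4 pairs), so the numbers pair these groups by the data, and the labels give no reason for the pairing. A summed level over the Schwann cell markers is not reported here.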

Additional observations from a re-analysis of the deposited data

Results flagged for a closer look

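Cfap221 had 1 Ptn_VP64 array far from the others. On uncorrected levels, replicate 1 was at -3.11, against -0.07, -0.28 and 0.03 on the other 3 Ptn_VP64 arrays. After patch correction it was at -1.93.

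Gm9112 had 1 Ptn_DEL array apart from the rest. Replicate 1 was at -0.52 on patch-corrected levels, against -1.05, -1.003 and -1.03 on the other 3 Ptn_DEL arrays. Among 9 groups of 4 patch-corrected levels and 32 of uncorrected ones, chance gives about 1 such array in 20 groups.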

How the results depend on the processing

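Between Ptn_DEL and Ptn_Delta limma called 0 genes under every alternative run, with a replicate block, unaveraged and without each array in turn included. None of the 8 genes was called there in 188 alternative values (adjusted p = 1 throughout). The 2 genes called between Ptn_VP64 and EGFP were 363 unaveraged, 654 unaveraged with a replicate block, 1 with no filter on dim probes, and 0 with the deposited values, without patch correction, with normexp and with quantile normalization. Same-numbered Ptn_VP64 and EGFP arrays correlated by 0.044 to 0.333 in their deviations, 1 of the 4 pairs under 0.1, so by the rule used here the numbers were not taken to pair these groups, although 15 of 16 arrays correlated best with their own number. Leaving out 1 array gave 0 to 3, with 0 without Ptn_VP64 replicate 1 or 4, 1 without EGFP replicate 1 or 3, Ptn_DEL replicate 2 or Ptn_Delta replicate 1 or 2, and 3 without EGFP replicate 2. Relatives called were 4 unaveraged and 9 with a replicate block, against 0. For array row, 0 genes became 407 unaveraged, 25 with each array's median shift kept (an alternative added after seeing the data), and 0 to 1 without single arrays, the 1 without EGFP replicate 2. Pmp22 stayed above 0 there in 25 of 25 alternatives (1.16 to 2.76, adjusted p = 0.0379 to 0.593) and passed in the unaveraged one alone.

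The difference of Ptn_VP64 from the mean of the other 3 groups stayed above 0 for each of the 8 genes under every alternative run, from a low of 1.27 for Gm9112 with another probe to 4.54 for Pmp22. Nothing is read from this sign, since the genes were chosen as higher after Ptn_VP64 on these same arrays. The mean of 3 groups also hides Cfap221 against EGFP alone, where it stood at -0.15 in the main fit. The sign of Ptn_DEL minus Ptn_Delta, never called, turned for 7 genes. With normexp it was 0.071 for Cfap221, -0.556 for Gm9112, -0.748 for Phldb2 and -0.008 for Sparcl1. With the deposited values it was -0.025 for Phldb2 and -0.021 for Sparcl1. With another probe it was -0.014 for Gm9112 and 0.152 for Pmp22, and unaveraged 0.424 for Vnn1. Within slide 2 alone it was -0.059 for Gm9112 and -0.249 for Tspan1, and within slide 1 alone 1.088 for Vnn1. Without 1 array it ranged from -0.014 to 0.437 for Gm9112, from -0.295 to 0.493 for Phldb2, from -0.816 to 0.494 for Pmp22 and from -0.899 to 0.724 for Vnn1. For array row the sign turned for 4 genes, none of them called there. Gm9112 was at -0.052 with the deposited values, -0.12 without patch correction and with normexp, -0.492 with another probe and -0.659 to 0.47 without 1 array. Sparcl1 was at -0.098 with the deposited values and -0.279 with normexp, and Tspan1 at 0.119 with normexp. Vnn1 was at 0.107 unaveraged, 0.194 without patch correction, 0.771 with normexp and -1.063 to 0.068 without 1 array. The cause of these changes was not tested. Dim spots limit Vnn1, Sparcl1, Cfap221 and Tspan1 most.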
